A study of Homo sapiens with 6 samples.

Results

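Sugars are added to proteins and lipids in the secretory pathway by glycosyltransferases, and the genes described here encode 3 functional kinds of them. Fucosyltransferases (FUT and POFUT) place fucose, polypeptide GalNAc-transferases (GALNT) start mucin-type O-glycans by adding N-acetylgalactosamine (GalNAc) to serine or threonine, and sialyltransferases (ST3GAL, ST6GAL, ST6GALNAC and ST8SIA) add sialic acid, usually as the last sugar of a chain. Their members were the protein-coding genes whose symbols consist of one of these 7 family names followed by a number, and 51 of the 62754 genes in the deposited table met that rule. All 51 were listed in the table, and 41 had enough counts to be tested.

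RNA-seq had been performed on 3 control libraries and 3 FAM60A-knockout libraries of a human embryonic kidney line, named HEK293 in the sample titles and HEK293T, its derivative carrying the SV40 large T antigen, in the cell line field. FAM60A (current symbol SINHCAF) belongs to the Sin3/HDAC repressor complex, which deacetylates histones, and the comparison asks which transcripts differ once it is disrupted. Knockout libraries came from a pool of cells selected with puromycin, not from a single clone, after delivery of Cas9 with guide RNAs against 3 regions of FAM60A, whereas the control cells carry the label Control with no further agent named. Nothing states that the replicates were separate cultures, so p-values measure only the spread between these libraries, which may be technical.

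Libraries held between 88361827 and 93346824 counts. FAM60A itself had 11028, 10165 and 12792 control counts against 5684, 5793 and 5449 knockout counts, each in the order of replicates 1, 2 and 3, so its transcript was reduced and not lost. Control replicate 3 stood apart from its group: 15 and 17 of the 41 tested glycosyltransferase genes lay over 2-fold from control replicates 1 and 2, against 0 between those 2 libraries, 9 to 10 between control replicate 3 and a knockout library, and 0 to 1 between knockout libraries. For that reason its values are given separately, and results that rest on it are repeated without it. All 6 HEK293 markers were detected. Their summed level was 914 to 1680 CPM (a gene's counts relative to the TMM-scaled total of its library) in controls and 734 to 872 in the knockout, and VIM, KRT8 and KRT18 in control replicate 3 (299, 387 and 76.6 CPM) lay near the knockout libraries and below control replicates 1 and 2 (694 and 707, 712 and 749, and 135 and 136 CPM). The other HEK293 markers did not follow this. PAX2 and NEFL in control replicate 3 (5.97 and 143 CPM) lay above every other library, which reached at most 2.06 and 96.0 CPM. NEFM in that library (1.95 CPM) lay between control replicates 1 and 2 (1.73 and 2.0 CPM). Markers of MDA-MB-231, the other line the study cultured, summed to 88.1 to 140 CPM in controls and 104 to 115 CPM in the knockout. Fibroblast markers summed to 0.497 to 2.52 CPM in controls and 7.72 to 9.72 CPM in the knockout, most of it LUM. DCN was higher there too, with 0, 1 and 1 control counts against 30, 33 and 33 knockout counts. The collagen gene COL1A2 was at or under 3 counts in every library. Haematopoietic and hepatocyte markers did not exceed 0.216 CPM in sum. In bulk RNA, fewer cells with a transcript and less transcript per cell cannot be told apart, and the part of these marker shifts in the results was not tested.

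ST8SIA4, a polysialic acid synthase, was higher in the knockout in every fit. FUT9, a fucosyltransferase that builds the Lewis x structure, was at 0 to 2 counts in the controls and passed the filter on low counts only through its knockout libraries, so its calls add little to its counts of 310 to 454 there. The 250 bases before the transcription start of FUT9 and ST8SIA4, and before both listed starts of GALNT13, are printed to show their promoters. GALNT13, a GalNAc-transferase, also rose. These are 3 of the 4 genes with the largest rises when all controls were used. Without control replicate 3 the order differed, with GALNT14 above GALNT13 and ST8SIA4. Sequences are from RefSeq on GRCh38.p14, read 5′ to 3′ on the gene's strand, and capitals mark a GC box (GGGCGG or its reverse complement CCGCCC), a short motif bound by Sp-family factors.
FUT9, chr6:96015724-96015973, plus strand: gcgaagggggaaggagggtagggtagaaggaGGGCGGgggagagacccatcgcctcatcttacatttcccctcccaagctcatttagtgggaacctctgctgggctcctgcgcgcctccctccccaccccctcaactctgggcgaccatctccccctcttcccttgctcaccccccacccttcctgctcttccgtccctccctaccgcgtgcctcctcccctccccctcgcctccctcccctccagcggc
ST8SIA4, chr5:100903283-100903532, minus strand: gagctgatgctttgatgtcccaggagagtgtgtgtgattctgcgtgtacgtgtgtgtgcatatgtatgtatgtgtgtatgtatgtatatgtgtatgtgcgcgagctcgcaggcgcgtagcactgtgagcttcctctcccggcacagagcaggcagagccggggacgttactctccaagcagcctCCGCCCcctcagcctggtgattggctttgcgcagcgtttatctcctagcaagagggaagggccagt
GALNT13, first start, chr2:153068043-153068292, plus strand: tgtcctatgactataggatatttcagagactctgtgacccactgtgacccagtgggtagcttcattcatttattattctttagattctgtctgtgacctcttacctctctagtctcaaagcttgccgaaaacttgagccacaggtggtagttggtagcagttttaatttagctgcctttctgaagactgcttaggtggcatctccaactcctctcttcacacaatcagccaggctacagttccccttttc
GALNT13, second start, chr2:153477651-153477900, plus strand: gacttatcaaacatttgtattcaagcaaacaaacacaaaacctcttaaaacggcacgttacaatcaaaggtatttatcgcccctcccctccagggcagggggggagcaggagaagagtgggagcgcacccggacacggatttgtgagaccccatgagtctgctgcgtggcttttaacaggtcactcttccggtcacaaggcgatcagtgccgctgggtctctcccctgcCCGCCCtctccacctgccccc

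The windows of FUT9, ST8SIA4 and the second GALNT13 start each held 1 GC box, and the first GALNT13 start held 0. A GC box on either strand occurred in 42.6% of the 35116 promoter windows of the same length. The letters GGAATG or CATTCC, the core recognised by TEAD factors, and CACGTG, an E-box, were absent from all 4 windows and occurred in 11.9% and 6.34% of all windows. CG dinucleotides numbered 11 in FUT9, 13 in ST8SIA4, and 1 and 11 at the GALNT13 starts, beside a median of 11 over all windows. Of the 51 genes, 37 had a window in the RefSeq table. GALNT5 and ST3GAL2 had no entry.

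Across the 41 tested genes, 14 differed between knockout and control libraries at an adjusted p of at most 0.05 in edgeR's quasi-likelihood test, 9 of them higher and 5 lower in the knockout. Among all 20992 genes tested, 16.6% were called, 7.96% higher and 8.67% lower. The median log2 fold change (knockout over control) was 0.22 for the 41 genes and -0.01 for all genes. When the log2 fold change also had to reach 1 in size, 5 genes were called, namely FUT9, GALNT5, GALNT13 and ST8SIA4 as higher and ST3GAL2 as lower, against 7.06% of all genes (3.34% higher, 3.72% lower). FUT9, counted among the 14 and the 5, passed the filter on low counts only through its knockout libraries. When control replicate 3 was left out, 34 of the 41 were called, 25 higher and 9 lower, while the background was 65.6% of 21686 genes (32.4% higher, 33.2% lower). With the fold-change threshold that fit called 19, of which 17 were higher and 2 lower, and the background was 22.9% (13.1% higher, 9.75% lower). The median log2 fold change of the 41 genes was then 0.81, and that of all genes -0.00. In TMM-scaled CPM, 23 of the 41 had no overlap between the 3 control and 3 knockout libraries, 16 with the knockout higher and 7 with it lower, against 41.6% of all genes (21.5% and 20.1%). FUT9 is also among these 23 and 16, and among the 34, 25, 19 and 17 without control replicate 3. In each of these counts its difference was already required by the filter. For any single gene, 0.1 is the smallest p that a two-sided exact permutation test of 3 against 3 libraries can give.

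**Figure D1:**
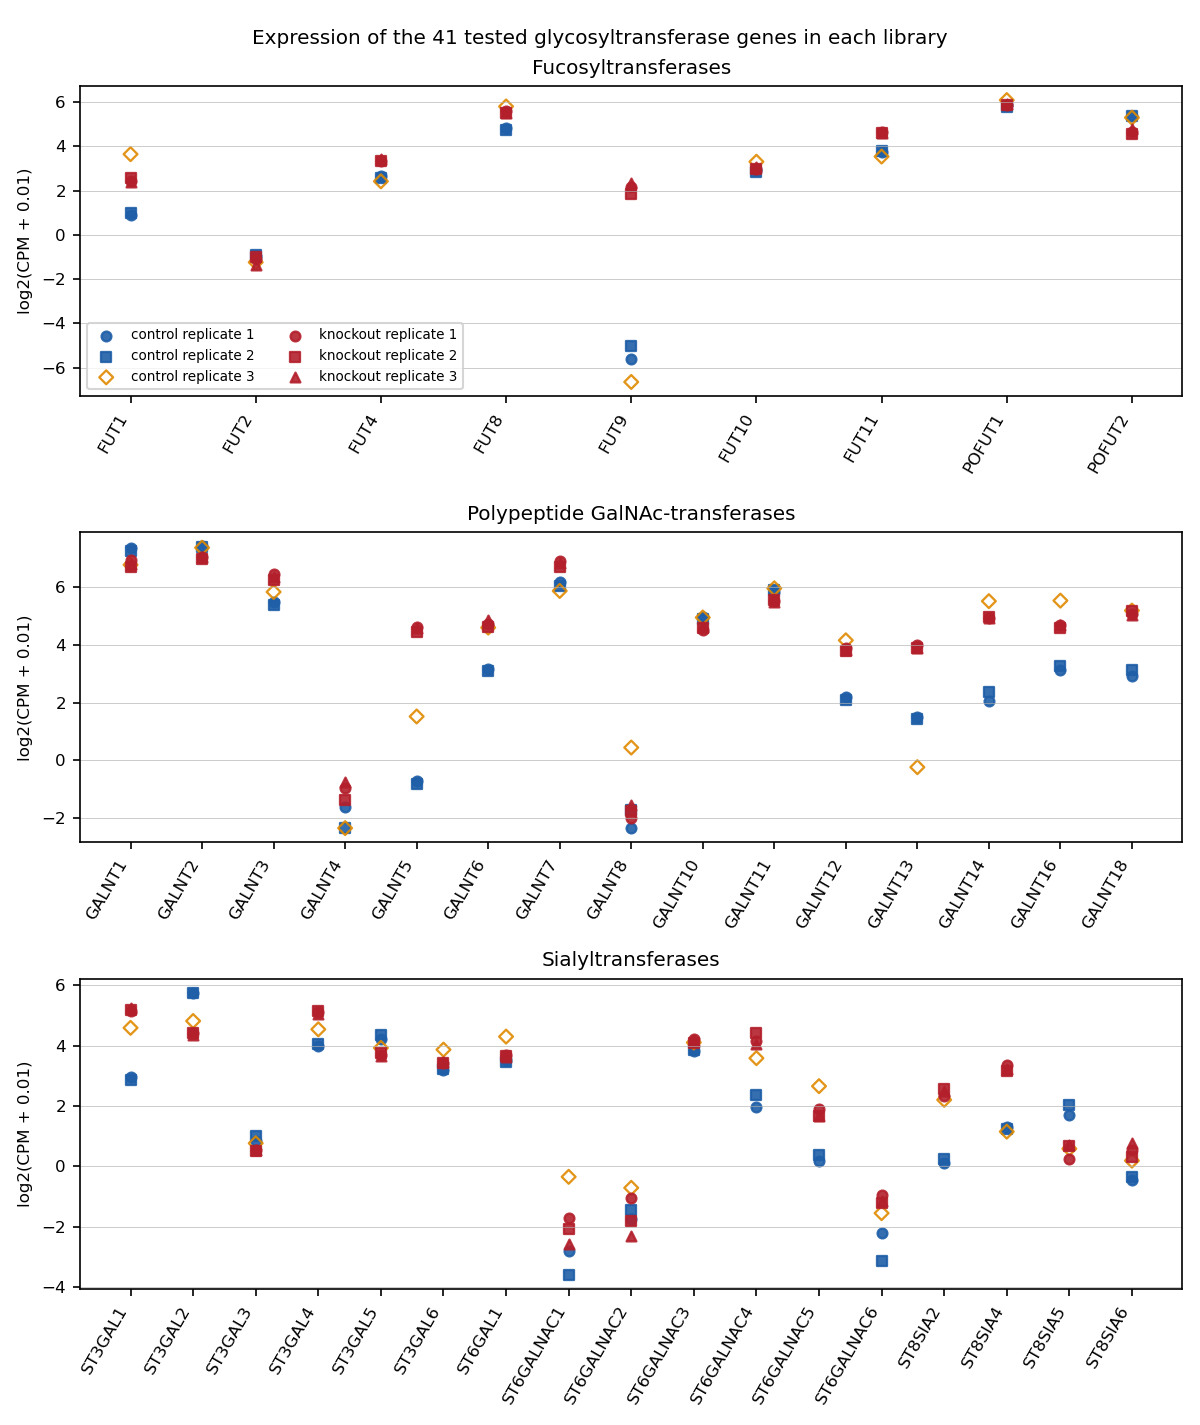
Level of each of the 41 tested genes in each library, as log2(CPM + 0.01) on the vertical axis, with blue symbols for control replicates 1 and 2, open orange diamonds for control replicate 3 and red symbols for the knockout libraries. FUT9 is at 0 to 2 counts in the controls and at 310 to 454 counts in the knockout, and for GALNT14, GALNT16 and FUT1 the diamond lies above the red symbols.

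FUT genes, most of whose enzymes act on glycan chains, numbered 11, of which 7 were tested. FUT4, FUT9 and FUT11 rose, and FUT1, FUT2, FUT8 and FUT10 did not pass the test. FUT9 (ENSG00000172461, GRCh38.p14 chr6:96015974-96215612) had 1, 2 and 0 control counts against 379, 310 and 454 knockout counts, each in the order of replicates 1, 2 and 3. It was thus at the level of single reads in every control, control replicate 3 included, and detected in every knockout library. Its place among the tested genes already required a difference, and it was not tested under the filter of at least 10 counts in every library. From 3 control and 1143 knockout counts, scaled for library size, the ratio was 424, with a 95% exact interval of 145 to 2060 that covers counting error only. The fitted log2 fold change was 8.55 (SE 0.56, edgeR adjusted p = 0.00196), a value that depends on edgeR's prior count because the controls are near 0. SE here and below is the size of the log2 fold change divided by the square root of the F statistic. For FUT9 it therefore depends on the prior count too and does not cover the counting error of the controls. FUT9 passed in all 11 alternative fits that tested it, with adjusted p between 5.18e-21 and 0.0437. Per kilobase of exon FUT9 still made up only 1.58% to 2.27% of the summed FUT level in the knockout libraries.

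FUT4, which also makes Lewis x and shares 10.1% of its exon bases with PIWIL4 on the same strand, had 613, 577 and 516 control counts against 862, 873 and 937 knockout counts. FUT11 (ENSG00000196968), which RefSeq now names POFUT4, had 1309, 1309 and 1123 control counts against 2101, 2095 and 2138 knockout counts. For both genes all knockout libraries were higher than all controls, and control replicate 3 was the lowest control, on the side away from the knockout. Log2 fold changes were 0.80 for FUT4 (SE 0.14, edgeR adjusted p = 0.0178) and 0.92 for FUT11 (SE 0.11, edgeR adjusted p = 0.00777). FUT11 was no longer called when knockout replicate 1 or 3 was omitted (edgeR adjusted p = 0.0713 and 0.067). FUT4 held without control replicate 3 (1.17e-06) and missed the threshold when any other library was left out, with edgeR adjusted p between 0.0586 and 0.107.

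FUT8, which adds the core fucose of N-glycans, was the most abundant FUT gene in every library, with 39.7% to 49.4% of the summed CPM per kilobase of exon. Its counts were 2739, 2568 and 5382 for control and 4077, 3991 and 4030 for knockout libraries. The knockout libraries lay above control replicates 1 and 2 and below control replicate 3. With all controls the log2 fold change was 0.34 (SE 0.29, edgeR adjusted p = 0.452), and without control replicate 3 it was 0.73 (SE 0.08, edgeR adjusted p = 4.11e-08). FUT1, which makes the H antigen, showed the same arrangement more strongly, with 181, 191 and 1206 control counts against 455, 526 and 467 knockout counts. Control replicate 3 held 6.48 times the mean CPM of the other 2 controls and exceeded every knockout library. The log2 fold change of FUT1 was 0.03 (SE 0.75, edgeR adjusted p = 0.982) with all controls and 1.5 (SE 0.12, edgeR adjusted p = 6.63e-10) without that library. FUT2, also an H-antigen enzyme, had 34 to 50 counts in all libraries. FUT10, named POFUT3 in RefSeq, had 660 to 953, and neither was called in any fit. FUT3, FUT5, FUT6 and FUT7, further Lewis-type enzymes, were not tested: FUT5 had 0 counts in every library, FUT6 at most 1, FUT7 at most 5 and FUT3 at most 11. FUT5 shares 82.5% and FUT7 34.2% of exon bases with another gene model on the same strand, so these low counts are uncertain too. FUT3, FUT5 and FUT6 are close paralogs, so their few reads cannot be assigned with certainty.

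The summed FUT level was 9.86 and 9.58 CPM per kilobase of exon in control replicates 1 and 2, 16.2 in control replicate 3 and 16.3 to 16.9 in the knockout. FUT8 was the largest part of the sum in each, at 4.04 and 3.83 CPM per kilobase in control replicates 1 and 2, 7.99 in control replicate 3 and 6.52 to 6.94 in the knockout. The other parts differed: FUT1 supplied 17.8% of the sum in control replicate 3 and 7.35% to 8.47% in the knockout, while FUT11 supplied 14.6% and 29.7% to 29.9%. Of the protein O-fucosyltransferases, POFUT2, which modifies thrombospondin repeats, fell, with 4072, 4026 and 3797 control counts against 2118, 2085 and 2443 knockout counts. Control replicate 3, at 39.3 CPM, lay just under the 41.9 CPM of both other controls and above the knockout libraries (23.8 to 27.7 CPM). The log2 fold change was -0.68 (SE 0.10, edgeR adjusted p = 0.0108), and the call was lost without control replicate 2 (0.0524) or when knockout replicate 1, 2 or 3 was omitted (edgeR adjusted p = 0.0829, 0.0641 and 0.0647). POFUT1, which modifies EGF-like repeats such as those of Notch receptors and had the highest level of its family per kilobase in every library, had 5726, 5230 and 6566 control counts against 4937, 5049 and 5271 knockout counts. Its groups overlapped, and the log2 fold change was -0.04 (SE 0.11, edgeR adjusted p = 0.8).

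**Figure D2:**
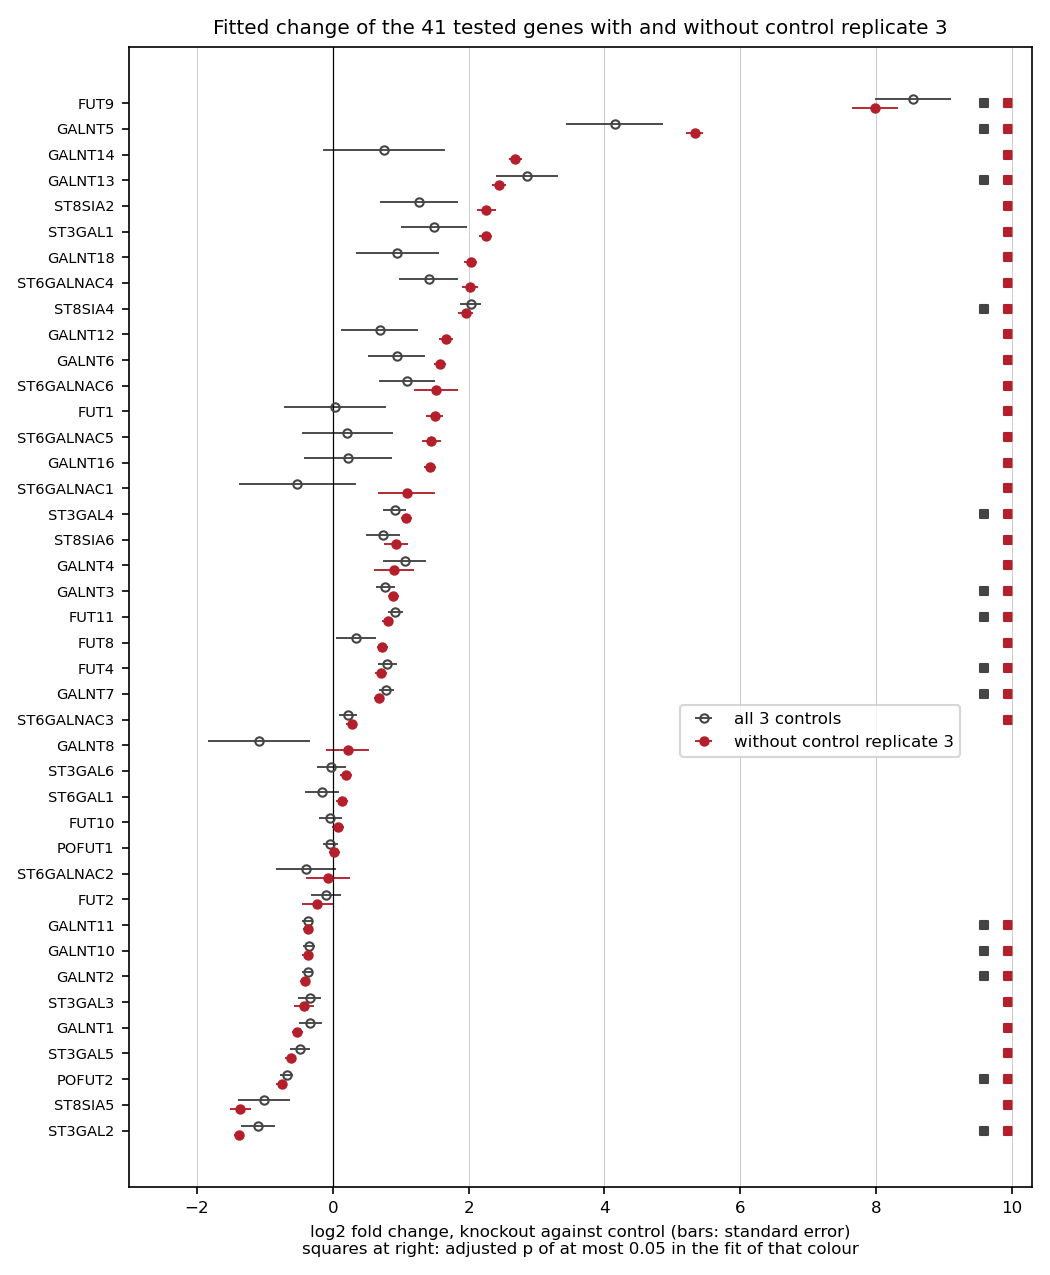
Fitted log2 fold change of knockout against control for the 41 tested genes on the horizontal axis, from all 3 controls (grey) and without control replicate 3 (red). Bars are standard errors back-calculated as the size of the log2 fold change divided by the square root of the F statistic. Squares at the right mark an adjusted p of at most 0.05 in the fit of that colour, 14 genes with all controls and 34 without control replicate 3.

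Polypeptide GalNAc-transferases comprised 18 genes, of which 15 were tested. GALNT3, GALNT5, GALNT7 and GALNT13 rose, GALNT2, GALNT10 and GALNT11 fell, and 8 did not pass the test. GALNT5 (ENSG00000136542, GRCh38.p14 chr2:157257705-157318491) had 58, 53 and 276 control counts against 2087, 1938 and 2149 knockout counts. Control replicate 3 was higher than the other controls but remained far below every knockout library. Its mean level was 1.33 ± 1.32 CPM in controls and 23.7 ± 1.44 CPM in the knockout (SD, n = 3 each), a log2 fold change of 4.15 (SE 0.71, edgeR adjusted p = 0.0159). Without control replicate 3 the log2 fold change was 5.33 (edgeR adjusted p = 1.33e-18). The call was lost without control replicate 2 (0.0503) and on omitting knockout replicate 1, 2 or 3 (edgeR adjusted p = 0.0849, 0.0692 and 0.0838).

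GALNT13 (ENSG00000144278, GRCh38.p14 chr2:153068293-154456574), an isoenzyme known from neural tissue, had 273, 257 and 81 control counts against 1345, 1315 and 1328 knockout counts. Here control replicate 3 was 3.27-fold below the mean CPM of the other controls, so it lay on the far side from the knockout, the opposite of its place for GALNT5. Levels were 2.11 ± 1.1 CPM in controls and 15.3 ± 0.553 CPM in the knockout (SD, n = 3 each), a log2 fold change of 2.86 (SE 0.46, edgeR adjusted p = 0.0136), or 2.45 without control replicate 3. Leaving out knockout replicate 1, 2 or 3 raised the edgeR adjusted p to 0.0793, 0.0641 and 0.0754. GALNT5 and GALNT13 both lie on chromosome 2, with starts at 157257705 and 153068293. Also on chromosome 2 are GALNT3, which rose, GALNT14 and ST3GAL5, which were not called with all controls, and ST6GAL2, which was not tested. Per kilobase of exon GALNT5 supplied only 1.86% to 1.96% of the summed GALNT level in the knockout, and GALNT13 2.01% to 2.09%.

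GALNT3, which glycosylates the hormone FGF23, and GALNT7, which prefers peptides that already carry GalNAc, were far more abundant genes with smaller rises. GALNT3 had 4344, 4042 and 5538 control counts against 7438, 6708 and 7213 knockout counts, with control replicate 3 between the groups. The GALNT7 counts were 7053, 6364 and 5676 for control and 10200, 9105 and 10205 for knockout libraries, with control replicate 3 the lowest library. Log2 fold changes were 0.77 for GALNT3 (SE 0.14, edgeR adjusted p = 0.019) and 0.79 for GALNT7 (SE 0.11, edgeR adjusted p = 0.0108). GALNT3 held only without control replicate 3 among the fits that left out 1 library, the others giving edgeR adjusted p between 0.0681 and 0.107, and GALNT7 was lost without control replicate 2, knockout replicate 1 or knockout replicate 3 (0.052, 0.0778 and 0.0745). The 3 genes that fell did so by similar small amounts. GALNT2, a broadly expressed initiating enzyme, fell by 0.37 (SE 0.08, edgeR adjusted p = 0.0257), GALNT11, which glycosylates Notch1, by 0.37 (SE 0.08, edgeR adjusted p = 0.0316) and GALNT10 by 0.35 (SE 0.09, edgeR adjusted p = 0.0468) on the log2 scale. In GALNT2, counts were 16672, 16171 and 16080 for control and 11121, 11126 and 11650 for knockout libraries, and for all 3 genes control replicate 3 lay within 1.07-fold of the mean CPM of the other controls. All 3 calls were lost when any library other than control replicate 3 was left out, with edgeR adjusted p between 0.0673 and 0.212.

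GALNT1, the GALNT gene of highest mean level per kilobase, had 15913, 14837 and 10633 control counts against 10441, 9191 and 9823 knockout counts. Control replicate 3 fell inside the knockout range, and the log2 fold change was -0.33 (SE 0.17, edgeR adjusted p = 0.208), or -0.52 (edgeR adjusted p = 8.37e-06) without that library. A group of GALNT genes had control replicate 3 at or past the level of the knockout. GALNT14 had 403, 500 and 4434 control counts against 2590, 2771 and 2689 knockout counts. The GALNT16 counts were 846, 918 and 4491 against 2173, 2091 and 2280. For both, control replicate 3 exceeded every knockout library. GALNT12 showed 445, 409 and 1728 control counts against 1245, 1224 and 1266 knockout counts. For GALNT18 the controls had 738, 832 and 3538 counts and the knockout 2811, 3149 and 2892. In CPM, control replicate 3 lay above every knockout library for these genes as well. GALNT6 had 879, 819 and 2349 control counts against 2209, 2175 and 2589 knockout counts, with control replicate 3 just below the lowest knockout library in CPM. With all controls none of these 5 genes was called (edgeR adjusted p between 0.167 for GALNT6 and 0.836 for GALNT16). Their log2 fold changes were then 0.75 for GALNT14 (SE 0.90), 0.95 for GALNT18 (SE 0.61), 0.69 for GALNT12 (SE 0.57), 0.94 for GALNT6 (SE 0.42) and 0.22 for GALNT16 (SE 0.65). Without control replicate 3 all 5 were called, with log2 fold changes of 2.69 for GALNT14 (SE 0.10), 2.03 for GALNT18 (SE 0.09), 1.67 for GALNT12 (SE 0.10), 1.58 for GALNT6 (SE 0.09) and 1.43 for GALNT16 (SE 0.09), and edgeR adjusted p between 1.69e-15 and 7.39e-12.

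GALNT8 was high in control replicate 3 alone, with 18, 28 and 130 control counts against 20, 25 and 29 knockout counts. Its log2 fold change was -1.09 (SE 0.75, edgeR adjusted p = 0.341), or 0.22 (SE 0.32, 0.555) without control replicate 3, and it was not called in any fit. It shares 41% of its exon bases with another gene model on the same strand, so its counts are uncertain. GALNT4, with 18 to 51 counts, shares 93.4% of its exon bases with the readthrough gene POC1B-GALNT4, so the split of reads between them is uncertain. Its log2 fold change was 1.06 (SE 0.32, edgeR adjusted p = 0.0675). GALNT9, GALNT15 and GALNT17 were not tested, with at most 11, 22 and 1 counts in a library. Of these, GALNT15 had its 22 counts in control replicate 3 and 1 to 7 in the other libraries.

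Summed over the family, GALNT level was 91.5 and 88.4 CPM per kilobase of exon in control replicates 1 and 2, 109 in control replicate 3 and 108 to 118 in the knockout. GALNT1 and GALNT2 together led it in control replicates 1 and 2, with 34.9% and 34.1% for GALNT1 and 24.3% and 24.7% for GALNT2. In the knockout these shares were 18.9% to 20.5% and 14.5% to 15.2%, and GALNT3 supplied 15.4% to 16.3%. Control replicate 3 had 19.7% for GALNT1, close to the knockout, but 19.8% for GALNT2 and 11.4% for GALNT3. GALNT14 made up 9.68% of the sum in control replicate 3, 1.04% and 1.36% in the other controls and 6.01% to 6.72% in the knockout.

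**Figure D3:**
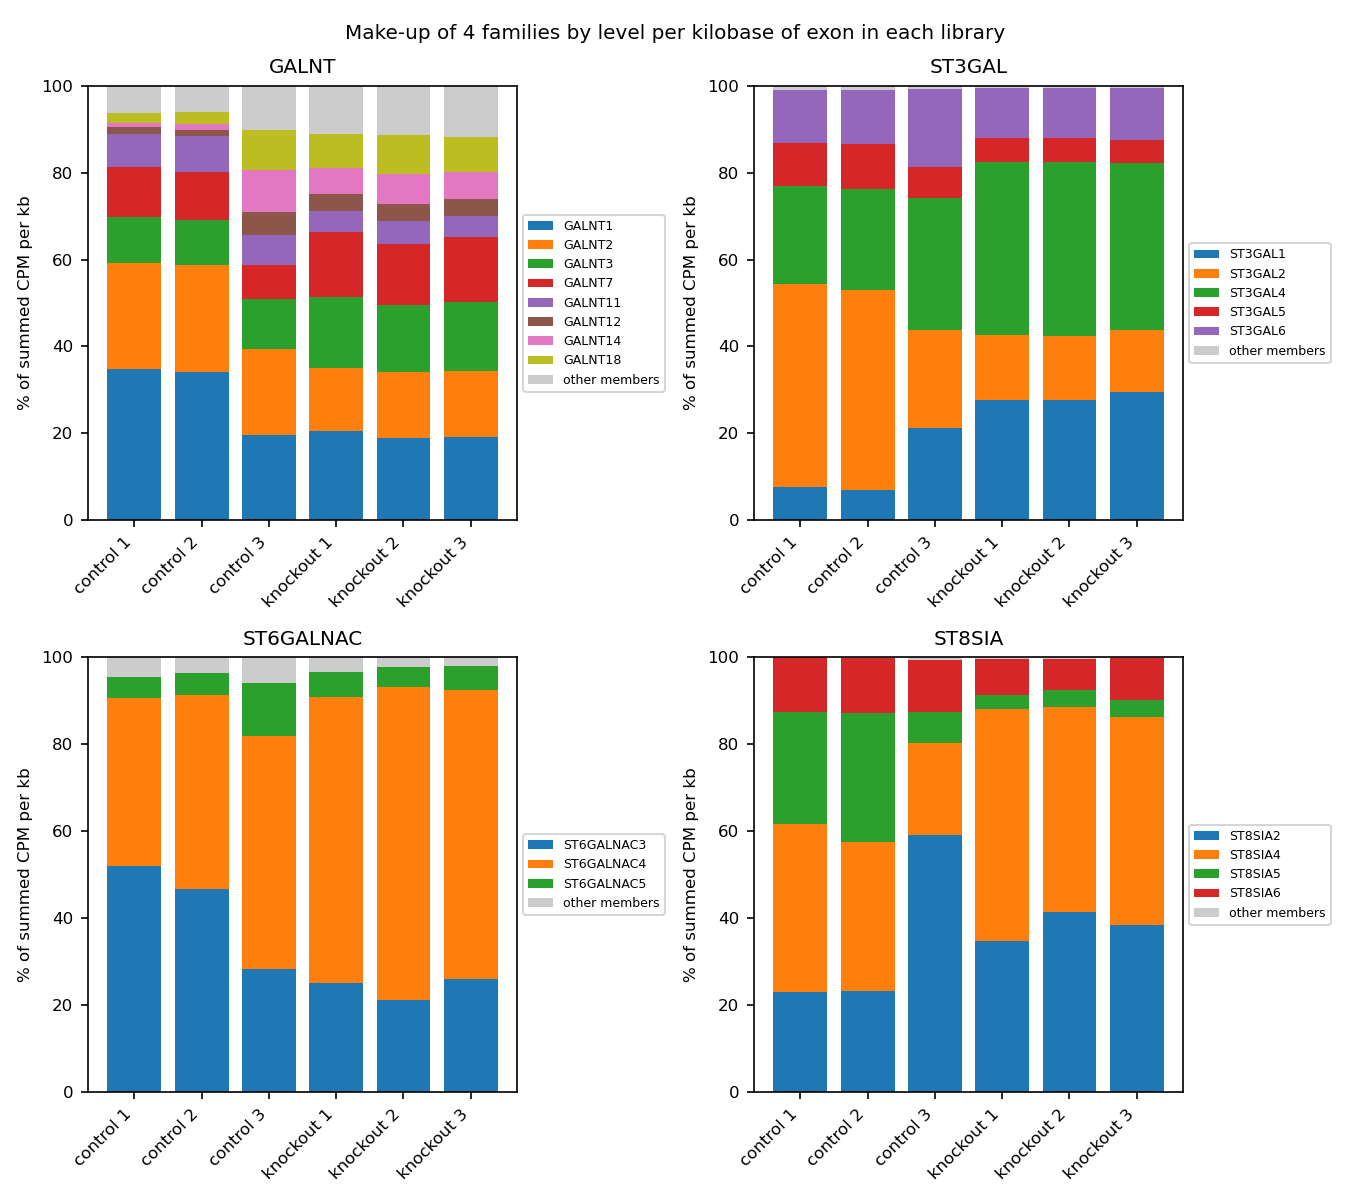
Share of each gene in the summed CPM per kilobase of exon of 4 families, one stacked bar per library, with genes under 5% in every library joined as other members. ST3GAL2 makes up 46.7% and 46.2% of the ST3GAL bar in control replicates 1 and 2, 22.5% in control replicate 3 and 14.4% to 14.9% in the knockout.

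Sialyltransferases that act on galactose with an ST3GAL linkage were all tested. ST3GAL4 rose, ST3GAL2 fell and 4 did not pass the test. ST3GAL2 (ENSG00000157350, GRCh38.p14 chr16:70375977-70439100), which sialylates core O-glycans and gangliosides, had 5159, 5177 and 2727 control counts against 1794, 1876 and 1809 knockout counts. Control replicate 3 lay between the other controls and the knockout, nearer to the knockout. The level was 45.1 ± 14.6 CPM in controls and 21.1 ± 0.497 CPM in the knockout (SD, n = 3 each), a log2 fold change of -1.10 (SE 0.25, edgeR adjusted p = 0.0334). Without control replicate 3 it was -1.38 (edgeR adjusted p = 7.69e-13), and without any other single library the call was lost, with edgeR adjusted p between 0.0953 and 0.142.

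ST3GAL1, which acts on the same core O-glycan acceptor, had 756, 693 and 2333 control counts against 3013, 3171 and 3333 knockout counts. All knockout libraries exceeded all controls, but with control replicate 3 between the groups the log2 fold change of 1.49 did not pass the test (SE 0.48, edgeR adjusted p = 0.0811). DESeq2 and limma-voom called it (adjusted p = 0.00916 and 0.0331). The log2 fold change was 2.25 without that library (SE 0.09, edgeR adjusted p = 2.97e-15). ST3GAL4, which sialylates the chains that carry sialyl Lewis x, had 1533, 1583 and 2254 control counts against 2948, 3149 and 2950 knockout counts, again with control replicate 3 between the groups. Its log2 fold change was 0.91 (SE 0.17, edgeR adjusted p = 0.0202), or 1.08 without control replicate 3 (1.61e-10), and leaving out any other library gave an edgeR adjusted p between 0.0632 and 0.108. ST3GAL5, which makes the ganglioside GM3, had a log2 fold change of -0.48 (SE 0.15, edgeR adjusted p = 0.0706) and ST3GAL3 one of -0.34 (SE 0.17, edgeR adjusted p = 0.203). Both were called lower without control replicate 3 (edgeR adjusted p = 1.05e-06 and 0.015), and ST3GAL5 also by DESeq2 (adjusted p = 0.0151) and in edgeR's test scaled by total counts (0.038). ST3GAL6 had 887, 899 and 1408 control counts against 904, 943 and 979 knockout counts, and its log2 fold change of -0.02 (SE 0.21) was not called in any fit. It overlaps an antisense gene, DCBLD2, at 3.7% of its exon bases.

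The summed ST3GAL level was 11.7, 12 and 12.9 CPM per kilobase of exon in the controls and 14.6 to 14.9 in the knockout, and its leading gene differed between libraries. ST3GAL2 led in control replicates 1 and 2. ST3GAL4 led in control replicate 3 with 30.4% and in the knockout with 38.4% to 40.3%. ST3GAL1 supplied 7.59% and 6.86% in control replicates 1 and 2, 21.3% in control replicate 3 and 27.6% to 29.4% in the knockout. Of the ST6GAL genes, ST6GAL1, which sialylates N-glycans, had 1111, 1060 and 1904 control counts against 1084, 1098 and 1085 knockout counts. It was high in control replicate 3 alone, and was not called with that library (log2 fold change -0.16, SE 0.25, edgeR adjusted p = 0.675) or without it (0.13, SE 0.09, 0.187). ST6GAL2 had at most 15 counts and was not tested.

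ST6GALNAC genes, whose enzymes add sialic acid to GalNAc of O-glycans or gangliosides, were all tested and 0 of 6 passed in edgeR's test, where 16.6% of all genes did. ST6GALNAC4 and ST6GALNAC6 had an unadjusted p under 0.05, and DESeq2 and limma-voom each called 1 gene, ST6GALNAC4. Those 2 methods called 26.6% and 17.2% of all genes. With control replicate 3 left out, 5 of the 6 were called, each of them higher, in a fit that called 65.6% of all genes and 32.4% as higher. ST6GALNAC4 (ENSG00000136840), which adds a further sialic acid to sialylated core O-glycans, had 375, 489 and 1163 control counts against 1501, 1856 and 1483 knockout counts. Control replicate 3 again lay between the groups, and the log2 fold change was 1.41 (SE 0.43, edgeR adjusted p = 0.0705) with it and 2.02 (SE 0.12, edgeR adjusted p = 4.26e-12) without it. ST6GALNAC5, a ganglioside enzyme, had 108, 124 and 609 control counts against 314, 280 and 278 knockout counts, so control replicate 3 exceeded every knockout library. ST6GALNAC1, which makes the sialyl Tn antigen, had 13, 7 and 75 control counts against 25, 20 and 14 knockout counts, with the same arrangement. Without control replicate 3 the log2 fold change was 1.45 for ST6GALNAC5 (edgeR adjusted p = 1.64e-08) and 1.09 for ST6GALNAC1 (edgeR adjusted p = 0.026), and with it 0.21 and -0.52 (0.851 and 0.701).

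ST6GALNAC6 had 20, 10 and 32 control counts against 43, 37 and 39 knockout counts, without overlap. It shares 47.0% of its exon bases with another gene model on the same strand. The log2 fold change was 1.09 (SE 0.41, edgeR adjusted p = 0.117), and 1.52 without control replicate 3 (0.000323). ST6GALNAC3 had 1380, 1399 and 1664 control counts against 1567, 1497 and 1582 knockout counts, with a log2 fold change of 0.22 (SE 0.13, edgeR adjusted p = 0.26) and, without control replicate 3, of 0.28 (0.00509). ST6GALNAC2, with 17 to 58 counts and 39.8% of its exon bases shared with another model, was not called in any fit. Per kilobase of exon, ST6GALNAC3 led the family in control replicates 1 and 2 with 52.0% and 46.7%, and ST6GALNAC4 led in control replicate 3 with 53.8% and in the knockout with 65.7% to 71.9%. The family sum was 3.79 and 4.33 CPM per kilobase in control replicates 1 and 2, 8.5 in control replicate 3 and 9.58 to 11.2 in the knockout.

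ST8SIA enzymes add sialic acid to sialic acid, and 4 of the 6 genes were tested. ST8SIA4 rose, and ST8SIA2, ST8SIA5 and ST8SIA6 did not pass the test. ST8SIA4 (ENSG00000113532, GRCh38.p14 chr5:100806933-100903282), which with ST8SIA2 makes the polysialic acid carried by the neural adhesion molecule NCAM, had 237, 225 and 214 control counts against 864, 790 and 825 knockout counts. All 3 controls were close together, control replicate 3 included, and every knockout library was higher. The level rose from 2.33 ± 0.112 to 9.53 ± 0.649 CPM (SD, n = 3 each), a log2 fold change of 2.03 (SE 0.15, edgeR adjusted p = 0.0026). It was called in all 12 alternative fits, with adjusted p between 2.45e-43 and 0.0437.

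For ST8SIA2, counts were 105, 113 and 444 for control and 421, 518 and 496 for knockout libraries. Control replicate 3 lay just below the knockout, in contrast to its place for ST8SIA4, and the log2 fold change was 1.27 (SE 0.58, edgeR adjusted p = 0.177), or 2.26 without that library (SE 0.14, edgeR adjusted p = 5.72e-12). ST8SIA5, a ganglioside enzyme, had 317, 389 and 144 control counts against 99, 138 and 142 knockout counts. Control replicate 3 lay inside the knockout range, and the log2 fold change was -1.01 (SE 0.38, edgeR adjusted p = 0.118), or -1.36 (SE 0.15, edgeR adjusted p = 6.79e-08) without it. DESeq2 called it lower (adjusted p = 0.0476). ST8SIA6 had 70, 74 and 109 control counts against 122, 108 and 149 knockout counts, a log2 fold change of 0.74 (SE 0.25, edgeR adjusted p = 0.0932), or 0.93 (0.000146) without control replicate 3. ST8SIA1, which starts the b-series gangliosides, had 0, 0 and 5 control counts against 7, 5 and 2 knockout counts, and ST8SIA3 had at most 4, and neither was tested. The summed ST8SIA level per kilobase was 0.807 and 0.869 CPM in control replicates 1 and 2, 1.33 in control replicate 3 and 2.44 to 2.5 in the knockout. In the knockout ST8SIA4 led with 47.2% to 53.4% and ST8SIA2 followed with 34.8% to 41.3%, whereas in control replicate 3 ST8SIA2 led with 59.0%. ST8SIA5 made up 25.8% and 29.7% of the sum in control replicates 1 and 2, 7.15% in control replicate 3 and 3.05% to 4.11% in the knockout.

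Control replicate 3 was placed for each of the 41 genes relative to the other 2 controls and the knockout libraries. For 14 genes it lay between them, among them GALNT5, ST3GAL1, ST3GAL2, ST3GAL4 and ST6GALNAC4, and among all genes tested this share was 23.0%. For 11 genes it lay past the knockout, among them FUT1, FUT8, GALNT14 and GALNT16, against 22.8% of all genes. For 4 genes, FUT2, GALNT1, ST6GALNAC3 and ST8SIA5, it lay within the knockout range (11.1%). For 9 it lay with the other controls or on their far side (18.6%): FUT4, FUT9, FUT11, GALNT4, GALNT7, GALNT10, GALNT11, GALNT13 and ST8SIA4. In the remaining 3, GALNT8, POFUT1 and ST6GALNAC2, the knockout overlapped control replicates 1 and 2 (24.5%). Control replicate 3 exceeded both other controls at least 4-fold in 8 of the 41 genes, namely FUT1, GALNT5, GALNT8, GALNT14, GALNT16, GALNT18, ST6GALNAC1 and ST6GALNAC5, against 4.94% of all genes. It was at least 4-fold below both in FUT9 alone (1.91% of all genes), where the counts were 0 against 1 and 2 and the fold carries no information. At a 2-fold limit it exceeded both other controls in 13 of the 41 genes (13.8% of all genes) and lay below both in 3, namely FUT9, GALNT13 and ST8SIA5 (7.04%). This is 1 library, so these are descriptions without a test.

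**Figure D4:**
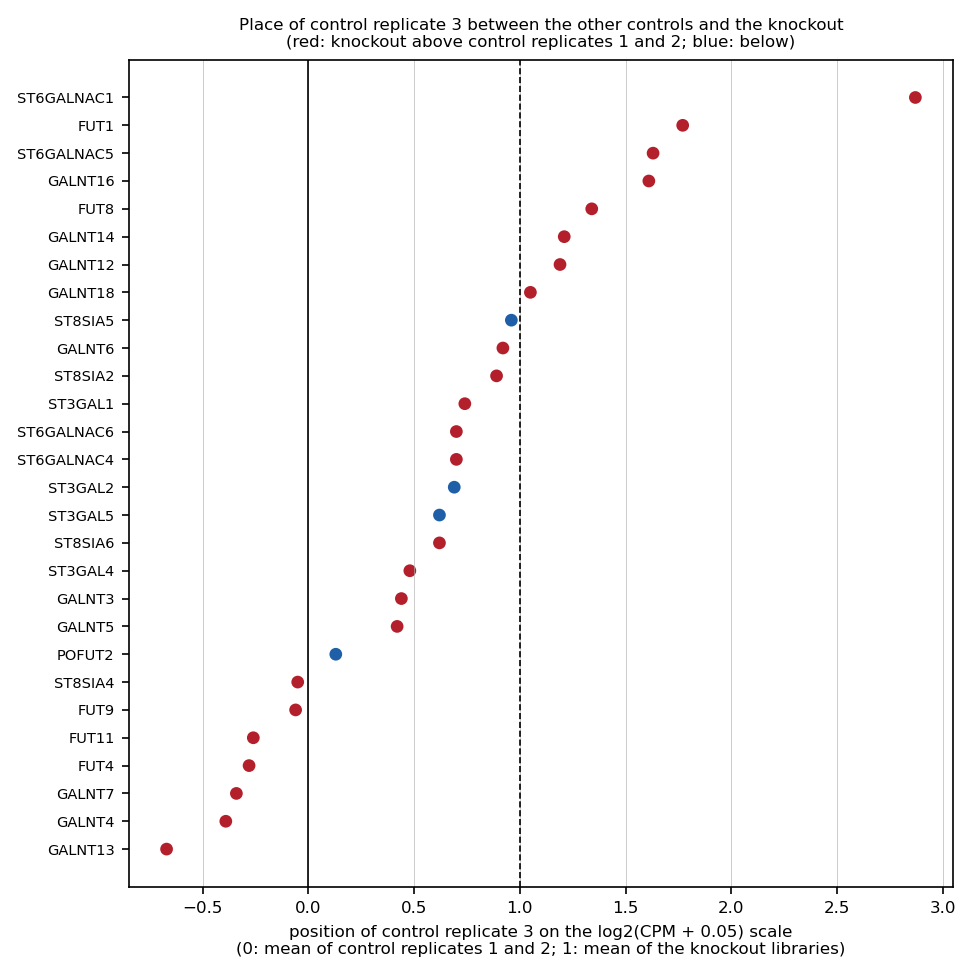
Position of control replicate 3 on the log2(CPM + 0.05) scale for the tested genes in which the knockout mean lay at least 0.5 from that of control replicates 1 and 2, where 0 is the mean of those 2 controls and 1 the mean of the knockout libraries. Red points are genes higher and blue points genes lower in the knockout, and FUT1, at 1.77, lies past the knockout while GALNT13, at -0.67, lies on the far side of the controls.

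Fucosyl-, sialyl- and GalNAc-transferases use nucleotide sugars made in the cytosol or nucleus and carried into the Golgi, and the genes for that supply were mixed in direction. The shares of all genes to set beside these counts are the 7.96% called higher and 8.67% called lower with all controls. Of 6 GDP-fucose supply genes, GFUS and FPGT rose and SLC35C2 fell. GFUS, which completes GDP-fucose synthesis, had 4992, 5459 and 5391 control counts against 9417, 9985 and 9920 knockout counts, with control replicate 3 alongside the other controls. Its log2 fold change was 1.04 (SE 0.08, edgeR adjusted p = 0.00277), called in every alternative up to an adjusted p of 0.0437. FPGT, of the salvage route, rose by 0.68 (edgeR adjusted p = 0.0175) and SLC35C2, a transporter-family protein, fell by 0.49 (edgeR adjusted p = 0.0293) on the log2 scale.

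Of 5 CMP-sialic acid genes, GNE, the entry enzyme of sialic acid synthesis, fell from 3248, 3141 and 2608 counts to 1641, 1540 and 1618, a log2 fold change of -0.75 (SE 0.12, edgeR adjusted p = 0.0143). CMAS, which activates sialic acid to its CMP form, rose by 0.45 (SE 0.08, edgeR adjusted p = 0.0164). Of 5 genes for UDP-GalNAc and UDP-galactose supply, UAP1, which forms UDP-N-acetylhexosamines, rose from 10154, 10993 and 11425 counts to 20092, 18656 and 18221, a log2 fold change of 0.96 (SE 0.10, edgeR adjusted p = 0.0055), with adjusted p of at most 0.05 in every alternative. GALK2, a GalNAc kinase, rose by 0.47 (edgeR adjusted p = 0.0483). The calls of FPGT, SLC35C2, GNE, CMAS and GALK2 were lost in each fit that left out a library other than control replicate 3, with edgeR adjusted p up to 0.11, 0.142, 0.0904, 0.106 and 0.198 in turn.

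Acceptor chains for fucose and sialic acid are built by galactosyl- and N-acetylhexosaminyltransferases. Of 22 listed genes of these enzyme types, not all of which build such chains, 20 were tested. Among them 3 were higher and 3 lower, against 7.96% and 8.67% of all genes. When that test left out control replicate 3, 9 were higher and 7 lower, against 32.4% and 33.2% of all genes. The median log2 fold change of the 20 was 0.08 with all controls and 0.09 without the library. B3GALT5, which makes type 1 chains, had 237, 197 and 271 control counts against 30, 32 and 35 knockout counts, a log2 fold change of -2.70 (SE 0.21, edgeR adjusted p = 0.00268), and it was called in every alternative. B3GNT8 (126, 187 and 51 counts against 20, 29 and 14) fell by 2.37 (edgeR adjusted p = 0.0329) and B4GALT5 by 0.75 (0.0219), while B4GALT1, B4GALNT1 and B4GALNT3 rose by 0.50, 0.56 and 0.67 on the log2 scale (edgeR adjusted p = 0.0133, 0.043 and 0.0395). These 5 calls were lost in every fit without a library other than control replicate 3, with edgeR adjusted p up to 0.171. Of the genes that extend O-GalNAc cores, 5 of 7 were tested, and GCNT4, a branching enzyme, rose from 96, 78 and 211 counts to 354, 352 and 383, a log2 fold change of 1.65 (SE 0.39, edgeR adjusted p = 0.0367, up to 0.142 with a library left out). C1GALT1 and its chaperone C1GALT1C1, which make core 1, did not pass with all controls (log2 fold changes -0.12 and -0.15, edgeR adjusted p = 0.789 and 0.783). Control replicate 3, at 18.7 and 22.9 CPM, lay below every knockout library for both, and without it both were called lower, with log2 fold changes of -0.41 and -0.51 (edgeR adjusted p = 0.000106 and 1.04e-05). Among LFNG, MFNG, RFNG and B3GLCT, which extend O-fucose, 0 of 4 were called in edgeR's test, by DESeq2 or by limma-voom. Of all genes, these fits called 16.6%, 26.6% and 17.2%, and a list of 4 is too short to set 0 apart from those shares. RFNG and B3GLCT had an unadjusted p under 0.05 in each fit. Without control replicate 3, where 65.6% of all genes were called, RFNG and B3GLCT were higher (log2 fold changes 0.75 and 0.21, edgeR adjusted p = 5.13e-08 and 0.0254) and LFNG was lower (-0.70, 0.000186).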

How the data were processed

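Gene-level RNA-seq of 6 libraries was analysed, 3 control and 3 FAM60A knockout, grouped by the titles and treatment field of the sample labels. The authors deposited whole-number read counts per Ensembl gene, without normalization. According to the study's methods, poly(A) RNA was made into strand-specific dUTP libraries, trimmed by Trimmomatic, and Salmon quantified the genes on hg38. The submitters' processing notes name STAR 2.7.10b, featureCounts 2.0.0 and hg38, while the extraction text of the labels names hg19. The strand setting of the counting and the annotation release are not given in the sources used here, so counts of genes with overlapping exons are uncertain, and the report names the larger overlaps on the same strand. Antisense models overlap 11.8% of FUT8, 11.9% of FUT11, 13.3% of GALNT2, 20.9% of GALNT12 and 5.3% of GALNT6 exon bases.

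Symbols, exon lengths and exon overlaps were taken from a GENCODE annotation lifted to GRCh37, used for names and lengths only. Coordinates and promoter sequences came from RefSeq on GRCh38.p14, matched by symbol or older symbol. Counts were scaled by TMM, filtered with filterByExpr (minimum count 10) and tested with the two-sided quasi-likelihood F-test of edgeR 4.0.16 in R 4.3.3 (glmQLFit, glmQLFTest). P-values of the 20992 genes that passed were adjusted by Benjamini-Hochberg. The SE given with a log2 fold change was back-calculated as its size divided by the square root of the F statistic, not estimated separately. A gene was called where its adjusted p did not exceed 0.05, alone or with a log2 fold change of 1 or more in size. CPM per kilobase used the union of a gene's exons. A group with at most 3 counts in every library was taken as at the floor. Total counts lay between 88361827 and 93346824. Counting intervals and floors cover counting error only.

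The rule for naming genes in full took genes called with the fold-change threshold, with or without control replicate 3. It also took genes in which control replicate 3 differed at least 4-fold from both other controls at a mean of at least 10 counts, and the gene of highest level per kilobase in each family. Other members are given by counts and ranges or by their calls. The members and the gene lists were chosen with earlier results of these data known.

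On simulated data of 20992 genes for the comparison of knockout with control, with 200 changed at an absolute log2 fold of 3, the test recovered 200 and called 7 unchanged genes. Recovery of smaller changes, or with a control library standing apart as control replicate 3 did, was not tested. Each library counted as its own sample. Replicate libraries differed by more than sampling noise, which does not show that they were separate cultures. Alternatives were DESeq2 1.42.0, quantile-normalized limma-voom (limma 3.58.1), scaling by total counts alone, omission of the filter, a stricter filter of at least 10 counts in every library, omission of single libraries, and a block for the replicate number. Tables were handled in Python 3.11.15 with pandas 2.3.3, numpy 2.4.6 and scipy 1.17.1, and drawn with matplotlib 3.10.9.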

Additional observations from a re-analysis of the deposited data

How the results depend on the processing

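The number of glycosyltransferase genes called at an adjusted p of at most 0.05 was 14 in edgeR's test and 11 to 18 over DESeq2, limma-voom, library size, no filter and at least 10 counts in every library. The share of all genes called was 16.6% in edgeR's test, and over those settings from 6.45% with no filter to 26.6% with DESeq2. The counts at these ends were 11 of 50 tested members and 18 of 41. FUT9, detected only in the knockout libraries beyond single reads, is in every count of called or higher genes here, except with at least 10 counts in every library. Leaving out single libraries gave 2 to 34, the highest without control replicate 3, where 65.6% of all genes were called, and the lowest without knockout replicate 1 or 3 (0.763% and 0.87% of all genes). Shares of all genes with the fold-change threshold, or by direction, were taken only with all controls and without control replicate 3. Such counts from other fits have no share to be read against. The count with the fold-change threshold was 5 (7.06% of all genes), 8 under DESeq2, and 2 to 19 with a library left out. The 19 came without control replicate 3, where 22.9% of all genes were called so. The count of higher genes was 9 (7.96% of all genes) and 2 to 25 with a library left out, the 25 without control replicate 3 (32.4%). Lower genes numbered 5 (8.67%), 2 with no filter, and 0 to 9 with a library left out. The 9 came without control replicate 3 (33.2%), and 0 from the fits without control replicate 2 or any 1 knockout library. In those 4 fits 17, 17, 19 and 16 genes in either direction had an unadjusted p under 0.05. With library size in place of TMM the median log2 fold change over all genes moved from -0.01 to -0.12.

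Deviations from the group means had correlations of 0.0101, 0.0306 and -0.0362 between same-numbered libraries (replicates 1, 2 and 3). Control replicate 3 dominates these deviations among the controls, so the correlations cannot show whether the numbers pair the samples. The main test did not take them as pairs. With the replicate block, 2 genes were called, with or without the fold-change threshold, both higher (FUT9 and ST8SIA4) and 0 lower, against 1.94% of all genes, and 22 had an unadjusted p under 0.05 in edgeR's test. Of the 2, FUT9 passed the filter on low counts only through its knockout libraries. Not every library correlated best with its own number.

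Signs turned only for genes that were not called with all controls. With single libraries left out the log2 fold change ranged from -0.40 to 1.5 for FUT1, -0.23 to 0.0016 for FUT2, -1.54 to 0.22 for GALNT8, -0.17 to 1.43 for GALNT16, -0.16 to 0.20 for ST3GAL6, -0.32 to 0.13 for ST6GAL1, -1 to 1.09 for ST6GALNAC1, -0.20 to 1.45 for ST6GALNAC5, -0.13 to 0.08 for FUT10 and -0.12 to 0.02 for POFUT1. The upper end came from the fit without control replicate 3 in each range except that of FUT2, where it came from the fit without knockout replicate 3. FUT1 was at -0.08 with library size in place of TMM, ST3GAL6 at 0.01 and ST6GALNAC1 at 0.08 with the replicate block, and ST6GALNAC1 at 0.0012 under limma-voom. The causes of these turns were not tested. At this depth, 10 of the 51 genes had too few counts to be tested.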

Other observations

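Several other glycosyltransferase genes that the naming rule leaves out were measured too. GALNTL6, a GALNT-like gene, had 70, 79 and 15 control counts against 1074, 1079 and 1102 knockout counts, each in the order of replicates 1, 2 and 3. Its log2 fold change was 4.46 (SE 0.60, edgeR adjusted p = 0.00917), or 3.99 without control replicate 3, and it was no longer called when knockout replicate 1 or 3 was omitted (edgeR adjusted p up to 0.0641). As for GALNT13, control replicate 3 lay on the side away from the knockout. GBGT1, of the ABO family of glycosyltransferases, had 1052, 1197 and 84 control counts against 1, 4 and 0 knockout counts. All knockout libraries were at single reads, and control replicate 3 lay between them and the other controls. The fitted log2 fold change was -8.61 (SE 1.40, edgeR adjusted p = 0.0143), a value that depends on the prior count. GBGT1 passed the filter on low counts only through its control libraries, so its place among the tested genes already required a difference, and the call was lost without any 1 of the knockout libraries (edgeR adjusted p up to 0.0964). A4GALT had a log2 fold change of -0.17 (SE 0.20, edgeR adjusted p = 0.581). ABO, with at most 4 counts, and GALNTL5, with 0, 1 and 1 control counts against 8, 6 and 10 knockout counts, were not tested.

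Enzymes that remove fucose, sialic acid or GalNAc gave 0 calls in edgeR's test among the 6 of 7 genes tested. That test called 16.6% of all genes, and a list of 6 is too short to set 0 apart from that share. FUCA1, a lysosomal fucosidase, had an unadjusted p under 0.05 and was the 1 gene called by DESeq2, while limma-voom called 0. Of all genes, DESeq2 called 26.6% and limma-voom 17.2%. Without control replicate 3, 2 were higher and 3 lower, in a fit that called 65.6% of all genes. Control replicate 3 was far from its group here as well: NEU1, a lysosomal sialidase, had 17505, 19093 and 5250 control counts against 8170, 8983 and 8559 knockout counts. FUCA2, a fucosidase, had 20336, 21094 and 11096 control counts against 13417, 13988 and 13878 knockout counts. In both, control replicate 3 lay below every knockout library. Without it the log2 fold changes were -0.97 for NEU1 (edgeR adjusted p = 3.69e-10) and -0.47 for FUCA2 (edgeR adjusted p = 1.17e-05), and with it -0.55 and -0.19 (0.42 and 0.608).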
